A study of Mus musculus with 4 samples.

Results

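The 10 genes described here encode molecules by which blood vessel walls hold leukocytes and platelets, or by which vessel cells hold one another: Icam1, Icam2, Vcam1, Sele, Selp, Pecam1, Vwf, Emcn, Eng and Esam. They were chosen by name from a table of 49492 gene rows, and all 10 had a row. Gene expression had been measured by RNA sequencing of whole testis from male C57BL/6J mice in 2 groups of 2 libraries. By the labels, the first group carried a Spry1 knockdown made with a hairpin (shSpry1), the other group was WT with a control hairpin (shControl), and both had been given LPS, the bacterial lipopolysaccharide that activates innate immunity. Spry1 encodes Sprouty1, which damps signalling from receptor tyrosine kinases. Age, LPS dose and time, the way the hairpins were delivered and the cells they reached are absent from the labels. The labels also leave it unsaid whether replicates were separate animals, so p-values reflect the spread of these libraries alone, which may be technical.

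Columns of the count table carry the headings LPS and NC. LPS was taken to mean the knockdown and NC the control hairpin, but this is a reading of names, since LPS stands in all 4 titles. If the headings mean LPS against no LPS, every difference below belongs to that contrast. The text therefore speaks of LPS libraries and NC libraries, after the column headings. Libraries held 17612342 to 22451132 counts, and a count of 0 allowed a level of up to 0.134 to 0.170 CPM (counts scaled to library size), with 3 counts as the floor and for counting error only. Spry1 itself gave 26 and 17 reads in LPS libraries, against 45 and 41 in NC libraries, but these counts were known when the columns were assigned and do not check it. Of 20855 genes tested by edgeR's quasi-likelihood test, 31.5% were called at a Benjamini-Hochberg adjusted p under 0.05. Log2 fold changes are LPS over NC, so those above 0 mark genes higher in LPS libraries.

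Leukocytes leave the blood in steps. Selectins on the vessel wall (Sele, Selp) catch passing cells and let them roll, immunoglobulin-family molecules (Icam1, Icam2, Vcam1) bind leukocyte integrins and stop them, and junction molecules (Pecam1, Esam) line the path between endothelial cells. Vwf encodes von Willebrand factor, stored with P-selectin in Weibel-Palade bodies, Emcn a mucin-like sialoglycoprotein of venous and capillary endothelium, and Eng a co-receptor for BMP9 and TGF-beta. NF-kB is known to drive Icam1, Vcam1 and Sele in endothelium exposed to endotoxin or cytokines. Icam1 and Vcam1 are not confined to vessels: in testis, macrophages and Sertoli and Leydig cells are also known to make one or both.

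The upstream sequences of Icam1 and Sele are shown because both genes are known NF-kB targets and yet differed in direction here. Each window runs from 250 bases before to 50 bases after the RefSeq transcript start, on the plus strand of GRCm38.p6, at chr9:21015690-21015989 for Icam1 and chr1:164047984-164048283 for Sele. Capitals mark matches to GGNNNTTCC, a reduced form of the NF-kB site, on either strand; its TTCC end is also the GGAA core bound by ETS factors, read on the other strand.
Icam1: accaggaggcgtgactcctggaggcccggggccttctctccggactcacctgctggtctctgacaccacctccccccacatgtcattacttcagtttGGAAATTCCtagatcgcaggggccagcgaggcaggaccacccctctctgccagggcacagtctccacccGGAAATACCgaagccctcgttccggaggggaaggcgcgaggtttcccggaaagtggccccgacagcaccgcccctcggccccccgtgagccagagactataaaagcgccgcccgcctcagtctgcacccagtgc
Sele: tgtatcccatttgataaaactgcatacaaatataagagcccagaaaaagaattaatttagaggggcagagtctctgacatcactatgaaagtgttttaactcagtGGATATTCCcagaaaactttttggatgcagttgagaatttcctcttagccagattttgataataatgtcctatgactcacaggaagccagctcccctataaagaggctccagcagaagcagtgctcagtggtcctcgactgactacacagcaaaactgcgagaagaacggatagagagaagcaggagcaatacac
Icam1 had 2 such sites, at -153 to -145, read on both strands, and at -84 to -76. Sele had 1 site, at -145 to -137. RefSeq windows were at hand for 5 of the 10 genes, and 4 of these, the others being Selp and Eng, held a match, as did 20.7% of all 27025 genes with a window. A match of letters is a description of the window and no evidence of binding.

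Among the 10 genes, the integrin ligands Icam1 and Vcam1 and the co-receptor gene Eng were higher in LPS libraries, while Sele and Vwf were lower. The other 5 did not give a call: Pecam1 and Esam were tested and not called, and Icam2, Selp and Emcn were too low to be tested. Among all genes tested 15.2% were called higher and 16.3% lower. Counts of calls in each list below are to be read beside these shares. The libraries of the 2 groups did not overlap in 6 of the 7 genes tested, and in 64.1% of all genes tested. In whole tissue, fewer cells of a type and less RNA per cell cannot be told apart.

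**Figure D1:**
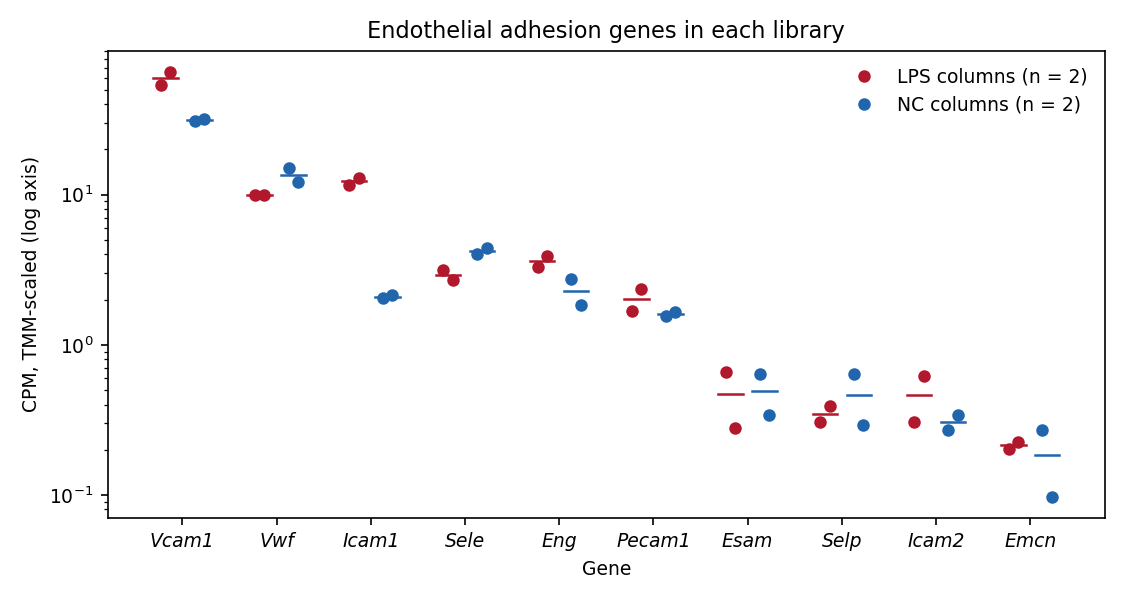
Level of each gene in each library, in CPM scaled by TMM factors on a log axis, with points for the 2 libraries of a group and a bar for their mean (LPS libraries red and left, NC libraries blue and right). Icam1 showed the widest separation, and Esam, Selp, Icam2 and Emcn lay under 1 CPM in every library.

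Icam1, the ligand of the leukocyte integrins LFA-1 and Mac-1, gave 228 and 232 reads in LPS libraries, against 45 and 44 in NC libraries. The level averaged 12.3 ± 1.01 CPM in LPS libraries and 2.10 ± 0.07 CPM in NC libraries (SD, n = 2 each). Each LPS library lay far above each NC library. The log2 fold change was 2.55 with a standard error (SE) of 0.16 and a 95% interval of 2.23 to 2.87 (edgeR, Benjamini-Hochberg adjusted p = 1.19e-15). By size of the rise Icam1 stood at place 146 among the 20855 genes. Icam1 lies on chromosome 9 from 21015985 to 21028817 in mm10, and the antisense gene Gm47079 shares 511 of its exon bases, 11.7% of them. As the strand setting of the counting is not known, reads from that stretch could belong to either gene. No row of the deposited counts carried the name Gm47079, so its own level is not known.

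Its neighbours of the same family on chromosome 9 gave no call. Icam5, known from forebrain neurons and lying from 21032073 to 21039036, gave 82 and 79 reads in LPS libraries, against 122 and 104 in NC libraries. Its log2 fold change was -0.31 ± 0.16 (SE), which was not called (edgeR, Benjamini-Hochberg adjusted p = 0.154). Icam4, known as a red cell antigen, was too low to be tested, at 1 and 1 reads in LPS libraries and 3 and 1 in NC libraries. Icam2, the constitutive ICAM of endothelium and platelets on chromosome 11, gave 6 and 11 reads in LPS libraries, against 6 and 7 in NC libraries, and its groups overlapped. The ratio of its scaled counts was 1.48 with an exact binomial interval of 0.677 to 3.31, which covers counting error only. It does not reach the ratio of 5.85 that Icam1 gave.

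Vcam1, the ligand of the integrin VLA-4, gave 1066 and 1171 reads in LPS libraries, against 677 and 654 in NC libraries. The level averaged 59.8 ± 8.13 CPM in LPS libraries and 31.3 ± 0.78 CPM in NC libraries (SD, n = 2 each). The groups did not overlap, although the LPS libraries lay further from each other than the NC libraries did. The log2 fold change was 0.93 ± 0.08 (SE), with an interval of 0.77 to 1.09 that lies wholly below that of Icam1 (edgeR, Benjamini-Hochberg adjusted p = 4.05e-12). Vcam1 lies on chromosome 3 from 116109949 to 116129688, and the antisense gene Gm43109 shares 61 of its exon bases. Gm43109 gave 58 and 64 reads in LPS libraries, against 49 and 25 in NC libraries.

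Of the selectins, Sele was lower and Selp was too low to be tested. Sele, or E-selectin, which is made by activated endothelium and lies on chromosome 1 from 164048234 to 164057677, gave 62 and 48 reads in LPS libraries, against 88 and 90 in NC libraries. The level averaged 2.92 ± 0.32 CPM in LPS libraries and 4.19 ± 0.27 CPM in NC libraries (SD, n = 2 each), with no overlap. The log2 fold change was -0.52 ± 0.19 (SE), with an interval of -0.90 to -0.13 (edgeR, Benjamini-Hochberg adjusted p = 0.0350). The call was close to the threshold: it was lost with DESeq2 (adjusted p = 0.339), when edgeR scaled by library size alone (Benjamini-Hochberg adjusted p = 0.0674), and when edgeR was run without LPS replicate 2, NC replicate 1 or NC replicate 2 (Benjamini-Hochberg adjusted p = 0.190, 0.0553 and 0.159). In each fit that leaves out a library, here and for the other genes, the lone library of its group is assumed to vary like the pair of the other group.

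Selp, or P-selectin, which platelets and endothelium store and release, gave 6 and 7 reads in LPS libraries, against 14 and 6 in NC libraries. The groups overlapped, and NC replicate 1 alone stood apart. The ratio of scaled counts was 0.736 with an interval of 0.336 to 1.55. Selp, from 164115264 to 164150026 on chromosome 1, shares 186 exon bases with Gm16587 and 438 with Gm16548, both on the opposite strand and at 4 counts or fewer in every library.

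Vwf, which bridges platelets to the vessel wall and lies on chromosome 6 from 125546774 to 125686679, gave 196 and 178 reads in LPS libraries, against 331 and 249 in NC libraries. The level averaged 9.96 ± 0.02 CPM in LPS libraries and 13.6 ± 2.06 CPM in NC libraries (SD, n = 2 each). The LPS libraries were nearly equal, and the NC libraries were both higher but unlike each other. The log2 fold change was -0.45 ± 0.12 (SE), with an interval of -0.69 to -0.22 (edgeR, Benjamini-Hochberg adjusted p = 0.00275). Without NC replicate 1 it was -0.28 (edgeR, Benjamini-Hochberg adjusted p = 0.158), and DESeq2 gave an adjusted p of 0.0934.

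Eng, on chromosome 2 from 32646595 to 32682669, gave 65 and 70 reads in LPS libraries, against 60 and 38 in NC libraries. The level averaged 3.61 ± 0.44 CPM in LPS libraries and 2.29 ± 0.62 CPM in NC libraries (SD, n = 2 each). The groups did not overlap once scaled, but NC replicate 1 came near the LPS libraries. The log2 fold change was 0.64 ± 0.22 (SE), with an interval of 0.21 to 1.08 (edgeR, Benjamini-Hochberg adjusted p = 0.0199). DESeq2 did not call it (adjusted p = 0.262). Neither did edgeR once LPS replicate 2 (Benjamini-Hochberg adjusted p = 0.129) or NC replicate 2 (log2 fold change 0.40, adjusted p = 0.248) was left out, and the log2 fold change was 0.96 without NC replicate 1. Eng shares 61 exon bases with Fpgs on the other strand, and Fpgs, a folate enzyme gene, was lower in LPS libraries, with 214 and 171 counts against 366 and 311 in NC libraries.

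Of the junction and surface genes without a call, Pecam1, or CD31, which lines endothelial contacts and also coats platelets and leukocytes, gave 33 and 42 reads in LPS libraries, against 34 and 34 in NC libraries. Its log2 fold change was 0.32 ± 0.26 (SE), with an interval of -0.20 to 0.85 (edgeR, Benjamini-Hochberg adjusted p = 0.376). Esam, a tight junction molecule of endothelium and platelets, gave 13 and 5 reads in LPS libraries, against 14 and 7 in NC libraries. Replicate 1 exceeded replicate 2 in both groups, and the interval of its log2 fold change, -1.03 to 0.94, left room for a change of either sign (edgeR, Benjamini-Hochberg adjusted p = 0.962). Emcn gave 4 and 4 reads in LPS libraries, against 6 and 2 in NC libraries, with a ratio of scaled counts of 1.13 (exact binomial interval 0.370 to 3.46), which leaves room for a difference of either sign. Pecam1 (106654217 to 106750628) shares chromosome 11 with Icam2 (106377656 to 106388075), Esam lies on chromosome 9 from 37528078 to 37538319 and Emcn on chromosome 3 from 137341067 to 137432185.

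**Figure D2:**
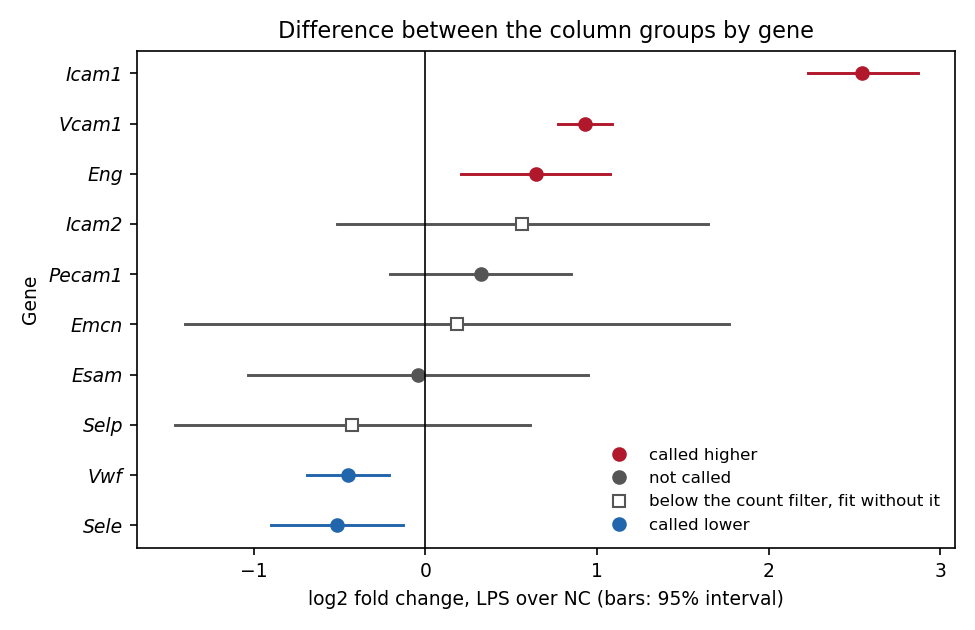
Log2 fold change of each gene, LPS over NC libraries, with 95% intervals from edgeR's quasi-likelihood fit (circles), or from a fit without the count filter for the 3 genes below it (open squares). Icam1, at 2.55, lies apart from all others, and the intervals of 5 genes span 0.

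Compared per transcript length, in TPM (counts divided by exon length and scaled within the library), Vcam1 was the highest of the 10 genes in every library, at 15.1 and 18.3 TPM in LPS libraries and 8.12 and 8.26 TPM in NC libraries. Icam1 came second in LPS libraries, at 6.55 and 7.39 TPM, followed by Sele and Eng, whose levels overlapped, and by Vwf. In NC libraries Icam1, at 1.10 and 1.13 TPM, stood below Sele (3.22 and 3.46 TPM) and Vwf (2.19 and 1.74 TPM), and its neighbour Eng (1.58 and 1.05 TPM) overlapped it. Pecam1 was at 0.664 and 0.936 TPM in LPS libraries and 0.581 and 0.611 TPM in NC libraries, and Emcn was the lowest of the 10 in every library.

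The summed level of the 10 genes was 29.7 and 34.3 TPM in LPS libraries, against 18.1 and 17.1 TPM in NC libraries. Icam1 and Vcam1 together made up 72.7% and 75.1% of that sum in LPS libraries and 51.0% and 54.8% in NC libraries. The other 8 genes summed to 8.10 and 8.53 TPM in LPS libraries and 8.87 and 7.74 TPM in NC libraries, which overlap. For each unit of Sele TPM there were 2.46 and 3.23 units of Icam1 TPM in LPS libraries, against 0.342 and 0.327 in NC libraries, so the order of these genes was the opposite in the groups.

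**Figure D3:**
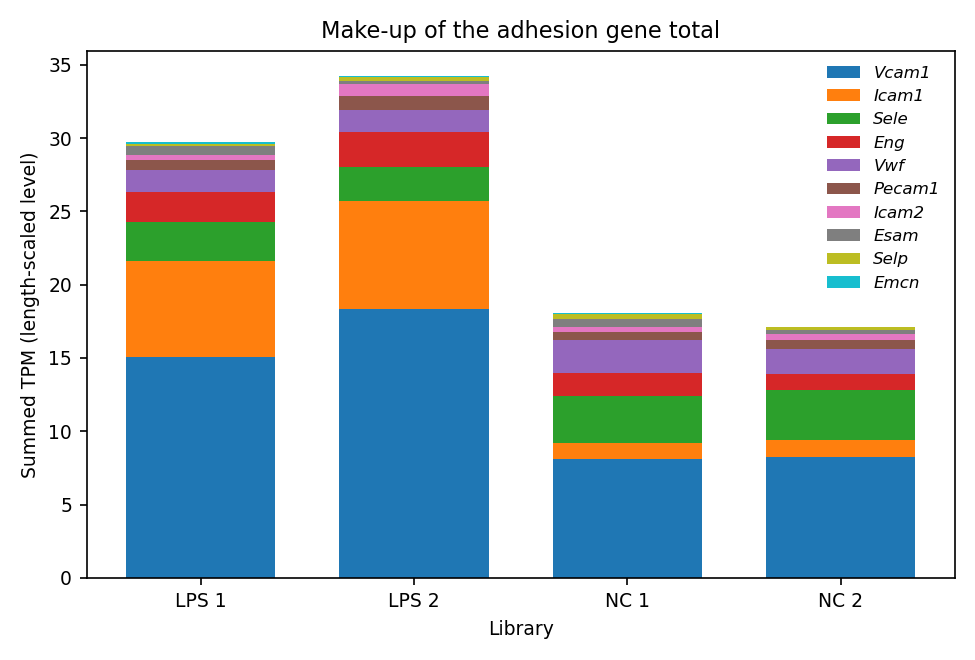
Summed TPM of the 10 genes in each library, stacked by gene, with the LPS libraries on the left. The total is 29.7 and 34.3 TPM in LPS libraries and 18.1 and 17.1 TPM in NC libraries, and the Icam1 and Vcam1 blocks hold the difference.

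General endothelial identity genes were called in both directions. Of 24 tested, 5 rose, 5 fell and 14 were not called, beside 15.2% called higher and 16.3% called lower among all genes tested, with a median log2 fold change of 0.03 against 0.00 over all genes tested, and their summed level was 48.7 and 50.8 TPM in LPS libraries and 51.8 and 45.6 TPM in NC libraries. The largest rises were those of Mmrn2, an endothelial matrix protein gene, by 1.58 ± 0.32 (log2, SE), of the guidance receptor gene Robo4 by 1.57 ± 0.41, and of the C-type lectin gene Clec14a by 1.21 ± 0.39. The largest falls were those of S1pr1, the sphingosine 1-phosphate receptor that stabilises vessel barriers (log2 fold change -1.93 ± 0.45), of Nos3, the endothelial nitric oxide synthase (-0.83 ± 0.16), and of the arterial transcription factor gene Sox17 (-0.74 ± 0.16). S1pr1 gave 4 and 6 reads in LPS libraries, against 21 and 23 in NC libraries. With DESeq2 the list had 2 rises and 2 falls, without S1pr1, Robo4 and Clec14a, and Clec14a was also lost in edgeR without LPS replicate 2 or NC replicate 2, and Robo4 without NC replicate 1.

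Integrins that bind these ligands occur on leukocytes, and some chains, such as that of Itgb1, in most cell types. Of 10 tested, 4 rose, 1 fell and 5 were not called, with a median log2 fold change of 0.345. Itgal, the alpha chain of LFA-1, gave 112 and 98 reads in LPS libraries, against 15 and 15 in NC libraries, a rise of 2.97 ± 0.24 (log2, SE). Itgam, the alpha chain of Mac-1, rose by 2.68 ± 0.18 and their shared beta chain gene Itgb2 by 0.95 ± 0.22. Itgad, whose product CD11d also pairs with the Itgb2 chain, fell, with 88 and 64 reads in LPS libraries, against 244 and 204 in NC libraries. The chains of the Vcam1 receptor VLA-4 were not called: Itga4 had a log2 fold change of -0.04 ± 0.25 and Itgb1 of 0.16 ± 0.08 (SE). Itga9, whose integrin also binds Vcam1, rose by 0.64 ± 0.15 and is named here after its value was seen. The calls of Itgb2 and Itga9 were lost with DESeq2, which called 2 genes higher.

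Among selectin ligands and the enzymes that decorate them, 3 of 13 tested genes rose and 2 fell, 8 were not called, and the list had a median of 0.23. Cd44, a hyaluronan receptor that also serves as an E-selectin ligand, gave 22 and 14 reads in LPS libraries, against 2 and 5 in NC libraries, a rise of 2.49 ± 0.52. Spn, or CD43, rose by 2.01 ± 0.42 and Glg1, the E-selectin ligand ESL-1, by 0.27 ± 0.07. Selplg, the main P-selectin ligand PSGL-1, fell by 0.52 (log2, SE 0.17), and Chst2, a carbohydrate sulfotransferase gene, fell by 0.89 with an SE of 0.33. The rise of Glg1 was lost with DESeq2 and without LPS replicate 2. Both falls were lost with DESeq2 and without LPS replicate 1 or NC replicate 1, and that of Chst2 also without either other library and with library size as the only scaling. Fut7, which fucosylates selectin ligands, and Glycam1, a mucin-like selectin ligand gene, had 0 counts in every library.

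Other junction and adhesion genes gave 4 rises and 0 falls among 13 tested, with a median of 0.29. At an unadjusted p under 0.05 the edgeR fit of all 4 libraries likewise had 0 falls, as did DESeq2. Jam2, a junctional adhesion molecule of endothelium that Sertoli cells also make, rose by 0.82 ± 0.13 (log2, SE), F11r, which encodes JAM-A, by 0.78 ± 0.12, and Cdh5, the endothelial cadherin, by 0.74 ± 0.19. The fourth rise was that of Cldn5, named after its value was seen. Cdh5 and Cldn5 were lost with DESeq2 and without LPS replicate 2, and Cldn5 also without NC replicate 2.

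In the endoglin pathway, 3 of 14 tested genes rose and 1 fell, beside 15.2% called higher and 16.3% called lower among all genes tested. The other 10 were not called, and the list had a median of 0.01. Acvrl1, which encodes the receptor ALK1 that Eng assists, gave 63 and 61 reads in LPS libraries, against 44 and 35 in NC libraries, a rise of 0.83 ± 0.22. Bmpr2, the type II receptor of the complex, rose by 0.46 ± 0.12 and the target gene Id3 by 1.11 ± 0.36, while Smad4, the common mediator, fell by 0.50 with an SE of 0.13. DESeq2 called 0 of these genes in either direction, with 2 higher and 1 lower at an unadjusted p under 0.05, and edgeR lost Id3 without LPS replicate 1 or NC replicate 2 and Smad4 without NC replicate 1. The ligand gene Gdf2, which encodes BMP9 and is made mainly in liver, had 1 and 2 reads in LPS libraries and none in either NC library.

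In a list of Weibel-Palade body cargo, von Willebrand factor handling and neighbouring endothelial haemostasis genes, 4 of 16 tested rose and 1 fell, and the median of the list was 0.10. Among all genes tested the shares called were 15.2% higher and 16.3% lower. The plasminogen activator gene Plat rose by 0.92 ± 0.11, Cd63, a granule membrane protein of many cell types, by 0.64 ± 0.10 and the cargo receptor gene Mcfd2 by 0.35 ± 0.08 (log2, SE). The fall was that of Thbd, the anticoagulant thrombomodulin, with 16 and 20 reads in LPS libraries, against 39 and 43 in NC libraries. It was lost with DESeq2 and without LPS replicate 1 or NC replicate 2. Without a call, Angpt2 was lower, at a log2 fold change of -0.59 ± 0.24, and Edn1 higher, at 1.10 ± 0.49 (edgeR, SE, Benjamini-Hochberg adjusted p = 0.0539 and 0.0880). Angpt2 gave 35 and 30 reads in LPS libraries, against 63 and 48 in NC libraries. The cleaving protease gene Adamts13 had 0 and 1 reads in LPS libraries and 2 and 0 in NC libraries.

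Among the 7 pathway lists, that of cytokine and NF-kB genes was called most often. Of its 16 genes, 11 rose and 0 fell, beside 15.2% called higher and 16.3% called lower among all genes tested. The median was 0.60, and edgeR and DESeq2 both had 0 falls at an unadjusted p under 0.05. DESeq2 called 7 rises. Tnf had 14 and 13 reads in LPS libraries and none in either NC library, at least 5.09-fold higher with 3 counts in each NC library as the floor. Tnfrsf1b, the second TNF receptor, rose by 2.08 ± 0.37 and Irf1, a transcription factor that acts on Vcam1, by 1.35 ± 0.18. Of the NF-kB subunit genes, Nfkb2 rose by 1.34 ± 0.16, Relb by 0.74 ± 0.17 and Rel by 0.455 ± 0.17. The calls of Relb and Rel were lost with DESeq2, and that of Rel also without LPS replicate 2, NC replicate 1 or NC replicate 2. Rela and Nfkb1 were not called, at 0.11 ± 0.07 and 0.28 ± 0.14, and neither were Il1a and Tnfrsf1a. Adam10 and Adam17, which shed adhesion molecules from the cell surface, had log2 fold changes of 0.45 ± 0.10 and 0.16 ± 0.10 (SE), of which only that of Adam10 was called, and both are named after their values were seen.

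**Figure D4:**
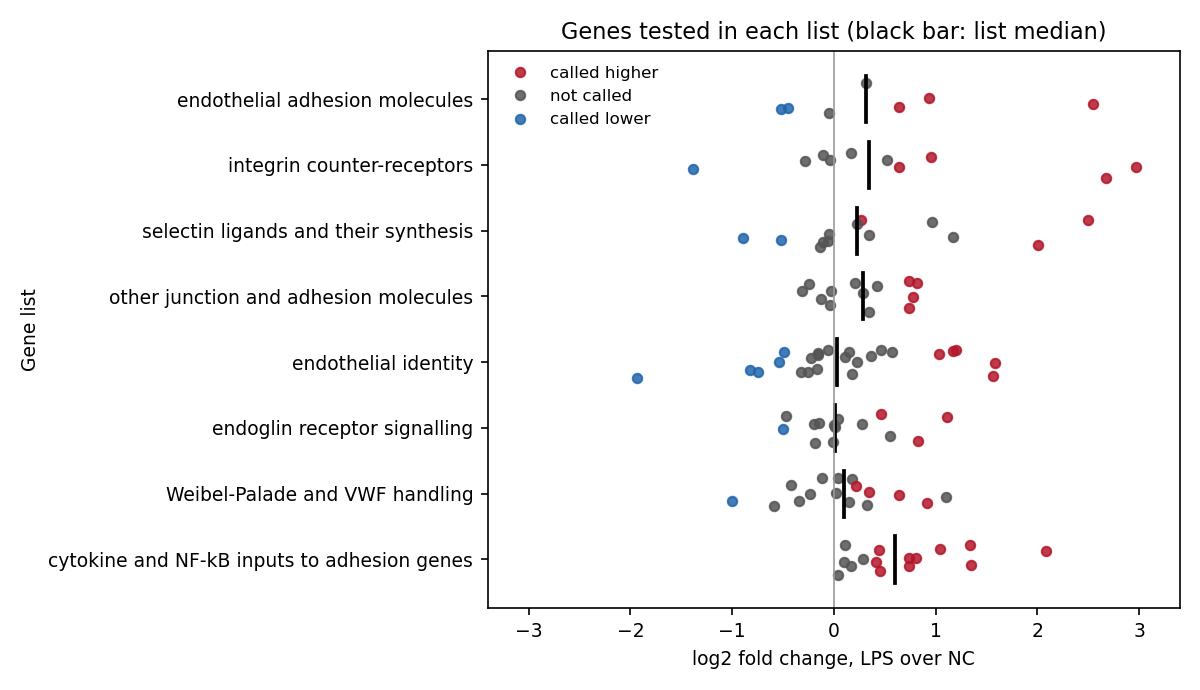
Log2 fold change, LPS over NC libraries, of each tested gene in the 8 lists, coloured by its call, with a black bar at the list median. Tnf, which was at 0 counts in NC libraries, is not drawn, and the 5 rises and 5 falls of endothelial identity genes lie on both sides of 0.

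Markers of other cells that make some of these molecules moved as well. Of 13 tested macrophage and monocyte markers 7 rose and 4 fell, with Adgre1 up by 1.97 ± 0.16 and Cd163 at 4 and 2 reads in LPS libraries, against 17 and 11 in NC libraries (a call lost with DESeq2 and without LPS replicate 2 or NC replicate 1), and the list's summed level was 89.3 to 92.3 TPM in LPS libraries and 50.8 to 57.8 TPM in NC libraries. Neutrophil markers summed to 10.2 TPM in each LPS library and 1.36 to 1.37 TPM in NC libraries, and 2 of 10 were tested, of which 1 rose. Most of the LPS sum was S100a9, at 8.40 and 8.51 TPM, and the other 9 markers summed to 1.78 and 1.65 TPM in LPS libraries and 1.36 and 1.37 TPM in NC libraries. S100a9 had 35 and 32 reads in LPS libraries and none in either NC library, at least 12.6-fold higher by the floor of 3 counts in each NC library, while Ly6g gave 0 reads in each LPS library, against 4 and 6 in NC libraries. Among lymphocyte markers, 1 of 4 tested rose, the pan-leukocyte gene Ptprc by 1.70 ± 0.23, and the sum was 6.00 to 6.40 TPM in LPS libraries and 5.80 to 6.95 TPM in NC libraries, with Ncr1 at 0 in all libraries. Their part in the rises of Icam1, Vcam1 and the leukocyte integrins was not tested.

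Platelets carry P-selectin, von Willebrand factor, Pecam1 and Icam2. Of 10 platelet and megakaryocyte markers 4 were tested and 1 fell, Pf4, with 8 and 7 reads in LPS libraries, against 25 and 22 in NC libraries, a call lost with DESeq2 and without NC replicate 1. Ppbp and Gp9 were at 0 in every library, and the list's sum was 11.7 to 12.3 TPM in LPS libraries and 11.7 to 13.1 TPM in NC libraries. Most of that sum was Gp1bb, which was not called, at 8.33 and 7.90 TPM in LPS libraries and 6.11 and 7.09 TPM in NC libraries. The sum therefore mainly reflects that gene and does not measure platelet content. Among 8 Sertoli cell markers 4 rose and 4 were not called (edgeR), with Rhox5 up by 0.72 ± 0.09, and their sum was 723 to 732 TPM in LPS libraries and 487 to 489 TPM in NC libraries. Most of this Sertoli sum was Clu, at 556 and 551.5 TPM in LPS libraries and 383.6 and 372 TPM in NC libraries. The genes without a call were Wt1, Gata4, Dhh and Fshr. Of 8 Leydig cell markers 5 fell and 1 rose, with Cyp17a1 down (log2 fold change -2.46 ± 0.07) and Cyp11a1 up by 0.26 ± 0.07 (not called without LPS replicate 2), and the sum was 1019 to 1117 TPM in LPS libraries and 1441 to 1515 TPM in NC libraries. Most of that sum was Insl3, which was not called, at 777 and 815 TPM in LPS libraries and 750 and 821 TPM in NC libraries. Germ cell markers, which identify the tissue as testis, summed to 37180 to 40380 TPM in LPS libraries and 49370 to 51970 TPM in NC libraries, with 5 of 6 lower, among them Prm2 (log2 fold change -0.69 ± 0.05). Most of the difference in the sum was Prm2, at 18190 and 17810 TPM in LPS libraries and 28540 and 25900 TPM in NC libraries. Ddx4 had a log2 fold change of -0.17 ± 0.05, and Sycp3, at -0.11 ± 0.06, was not called. The part of these shifts in the results was not tested.

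**Figure D5:**
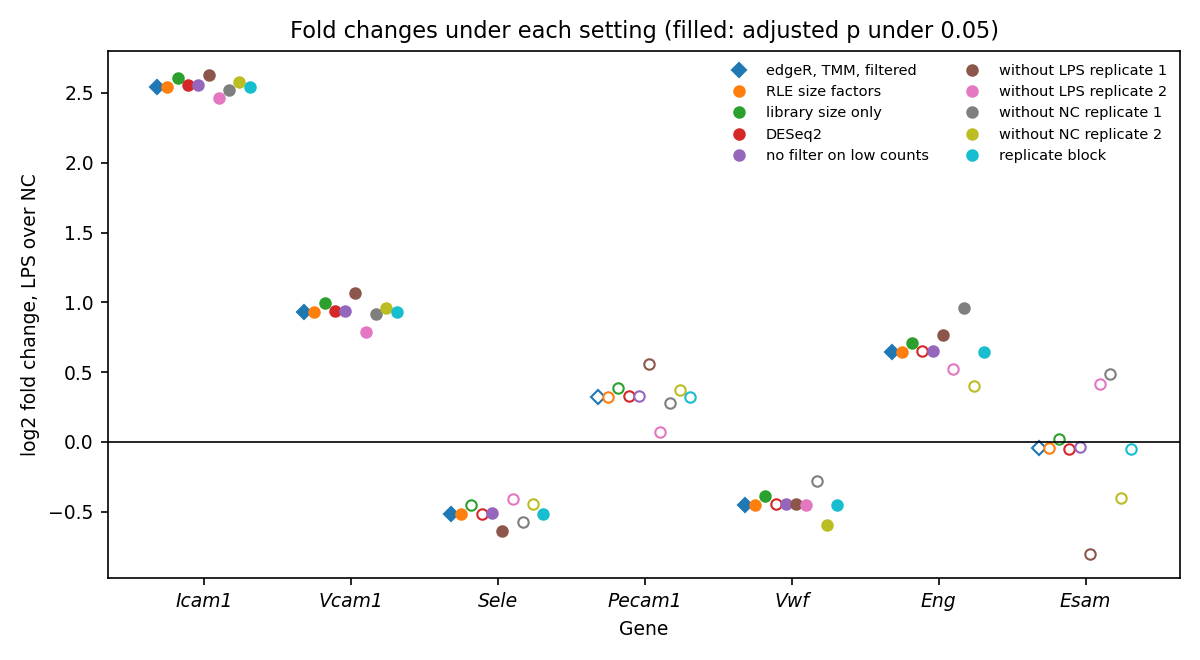
Log2 fold change of the 7 tested genes under the reported setting (diamond) and 9 alternatives (circles), filled where the adjusted p was under 0.05. Icam1 and Vcam1 are filled under all 10, while Sele, Vwf and Eng each lose the call in some, and Esam changes sign without ever being called.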

How the data were processed

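Raw read counts per gene for 4 mouse testis libraries were deposited in 1 table with the columns of featureCounts output, per the file headers. The submitters' processing notes name build mm10 and, without roles, STAR 2.5.3a, Subread 1.5.1 with featureCounts, DESeq, edgeR 3.12.1 and Trimmomatic 0.36. Strand setting, annotation release and molecular identifiers: not given in the sources used here. All 4 count columns were used.

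Genes passing filterByExpr (20855) were compared with edgeR 4.0.16 (R 4.3.3): TMM factors, quasi-likelihood F test with group as the only term, Benjamini-Hochberg adjustment over all genes tested, and a call at 0.05. Residual degrees of freedom were 2 and prior ones 34. SEs are those implied by the F statistic. DESeq2 1.42.0, other scalings, no filter, a replicate block and leaving out each library were alternatives. The fit was also run on simulated counts with the same spread for every gene and changes planted only in better-expressed genes. That run does not cover the genes with few counts here. TPM was computed from the counts and the deposited exon lengths. The replicate pairs differed by more than sampling noise (LPS pair, chi-square 2.31 per degree of freedom; NC pair, 2.20).

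The members and lists were chosen with earlier results of these data known. Named genes are the 10 members, up to 3 called genes in each direction per pathway list with groups apart, 1 in each direction per marker list, and markers at 0 in all libraries. Outside this rule, and with values seen, the text names Itga4, Itgb1, Itga9, Fut7, Glycam1, Cldn5, Icam4, Icam5, Gdf2, Adamts13, Angpt2, Edn1, Nfkb1, Nfkb2, Rel, Rela, Relb, Il1a, Tnfrsf1a, Adam10, Adam17, Gp1bb, Ly6g, Lyve1, Prox1, Ccl21a, Flt4 and Reln. The same holds for Acta2, Myh11, Cnn1, Rgs5, Pdgfrb, Kcnj8, Abcc9, Notch3, Clu, Wt1, Gata4, Dhh, Fshr, Insl3, Ddx4 and Sycp3. Gene overlaps come from GENCODE mouse release M21, in which all 10 genes had the deposited coordinates, and promoters from RefSeq (GRCm38.p6).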

Additional observations from a re-analysis of the deposited data

How the results depend on the processing

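The calls of Icam1 and Vcam1 held under all 9 alternatives, with log2 fold changes of 2.46 to 2.63 and 0.79 to 1.07. With DESeq2 1367 genes were called higher and 1743 lower, against 3169 and 3394 with edgeR. DESeq2 called 0 of the 10 genes lower (1 at an unadjusted p under 0.05), 2 integrins higher, 0 selectin ligand genes lower (0 unadjusted), 2 junction genes higher, 2 identity genes higher and 2 lower, 0 endoglin pathway genes in either direction, 0 von Willebrand factor handling genes lower (1 unadjusted) and 7 cytokine and NF-kB genes higher. With library size as the only scaling, 62% of calls were higher, against 48.3%, 1 of the 10 genes was lower, and 5 selectin ligand genes were higher and 1 lower. With no filter on low counts 5 selectin ligand genes were higher. Leaving out 1 library, edgeR called 0 to 2 of the 10 genes lower, 0 to 1 selectin ligand genes, 3 to 4 identity genes, 0 to 1 endoglin pathway genes and 0 to 1 von Willebrand factor handling genes lower. The numbers of the replicates pair nothing in the labels, and the difference of replicate 1 and 2 had a correlation of 0.02 over genes between the groups. With the replicate block the 10 genes gave the same 3 rises and 2 falls, 5 selectin ligand genes were higher and 2 von Willebrand factor handling genes lower. The causes were not tested. Counts under about 15 per library in Icam2, Selp, Emcn and Esam limit what can be seen there.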

Other observations

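All calls among genes used as lymphatic endothelial markers were rises. Of 7, 5 were tested, of which 3 rose and 2 were not called (edgeR), with a median log2 fold change of 0.72, and the summed level was 22.6 to 24.7 TPM in LPS libraries and 10.5 to 10.6 TPM in NC libraries. Pdpn, or podoplanin, also made by stromal and epithelial cells and macrophages, gave 124 and 118 reads in LPS libraries, against 13 and 17 in NC libraries, a rise of 3.18 ± 0.24 (log2, SE). Prox1, with 674 and 624 reads in LPS libraries, against 477 and 415 in NC libraries, rose by 0.72 ± 0.08, which is the median of the list. Most of the summed level was Prox1, at 10.06 and 10.33 TPM in LPS libraries and 6.05 and 5.54 TPM in NC libraries, and Pdpn. Pdpn was at 8.55 and 9.02 TPM in LPS libraries and 0.761 and 1.05 TPM in NC libraries. The sum therefore mainly reflects these genes and does not measure lymphatic content. Ccl21a, with 10 and 16 reads in LPS libraries, against 2 and 6 in NC libraries, rose by 1.85 ± 0.55. Flt4, the VEGF-C receptor, and Reln, which encodes reelin, were lower in each LPS library than in each NC library without a call, with log2 fold changes of -0.32 ± 0.13 and -0.36 ± 0.15 (edgeR, SE; Benjamini-Hochberg adjusted p = 0.0667 and 0.0708). Lyve1, also a marker of resident macrophages, was too low to be tested, at 2 and 1 reads in LPS libraries and 10 and 8 in NC libraries.

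Of 10 tested pericyte and smooth muscle markers 4 rose and 1 fell, 5 were not called, and the list had a median of 0.09. Des, the muscle intermediate filament gene, rose by 0.81 ± 0.17, while the pericyte proteoglycan gene Cspg4 fell by 0.58 with an SE of 0.21, a call lost with DESeq2, with library size as the only scaling, and without LPS replicate 1, LPS replicate 2 or NC replicate 1. The summed level was 169 to 170 TPM in LPS libraries and 105 to 110 TPM in NC libraries.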
